A study of Mus musculus with 9 samples.

Results

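The genes described are 10 members of the Bcl2 family and of the apoptosis machinery: Bcl2, Bcl2l1, Mcl1, Bax, Bak1, Bbc3, Pmaip1, Bid, Bcl2l11 and Apaf1. They were chosen by symbol, and all 10 were listed among the 23360 genes of the deposited tables. Their RNA was counted in 9 libraries made from total mouse RNA after removal of ribosomal RNA, 3 in each of 3 groups. A1G tumours were primary medulloblastomas from Math1-cre;A1G;Ptch1+/- animals of mixed strain, in which Cre is driven by the promoter of Math1 (Atoh1), a gene of granule neuron progenitors. The series describes these tumours as driven by ATOH1 together with aberrant Hedgehog signalling. Ptch1 tumours were medulloblastomas from Ptch1+/- animals of mixed strain, so animals of both tumour groups were heterozygous for Ptch1, which encodes the Hedgehog receptor. Cerebellum came from wild type adult C57BL/6 animals, so strain and tissue cannot be told apart in comparisons with cerebellum, and the tumour animals' ages were not stated in the labels. The labels also do not state which libraries shared a sequencing chip. The labels do not say that the replicates came from separate animals, so p-values measure the spread between these libraries.

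In the mitochondrial pathway of apoptosis, the guardians Bcl2, Bcl2l1 (BCL-XL) and Mcl1 hold the effectors Bax and Bak1 in check. BH3-only proteins, among them Bbc3 (PUMA), Pmaip1 (NOXA), Bid and Bcl2l11 (BIM), bind the guardians or activate the effectors, which then permeabilise the outer mitochondrial membrane. Cytochrome c released in this way joins Apaf1 in the apoptosome, which activates caspase-9 and so the caspases downstream of it. In the postnatal cerebellum, granule neuron progenitors are known to be prone to apoptosis after DNA damage, and mature neurons are known to lower Apaf1 and to resist cytochrome c.

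The libraries held between 2350941 and 9290237 fragments. Levels are given as CPM, fragments per 1000000 of the library, computed after all 9 libraries were scaled together by edgeR's TMM method. A count of 3 fragments, taken as the floor of detection, corresponds to 0.323 CPM in the deepest library and 1.28 CPM in the shallowest. Atoh1 stood at 652, 386 and 296 CPM in A1G tumours, at 279, 328 and 405 CPM in Ptch1 tumours and at 0, 10.03 and 16.4 CPM in cerebellum, so it separated tumours from cerebellum but not the tumour kinds. Ptch1 itself stood at 79.6, 299.7 and 60.04 CPM in A1G tumours, at 72.1 and 52.8 CPM in Ptch1 replicates 1 and 2, with replicate 3 just under the 105 CPM of cerebellum replicate 2, and at 55.9 and 181 CPM in the other cerebellum libraries. The groups overlapped, and the highest level was in A1G replicate 2. A1G replicate 2 also stood apart from its group: its correlation across genes with the other A1G libraries was 0.884 to 0.896, against 0.934 between those libraries. Its summed level of 6 markers of dividing cells was 1125 CPM, against 4503 and 3358 CPM in the other A1G libraries, 4517 to 5568 CPM in Ptch1 tumours and 20.2 to 29.4 CPM in cerebellum. Values without it are given beside the results that it moved most.

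All 10 genes passed the filter on low values, which asked for an FPKM of 1 or more in 3 or more libraries and kept 14337 genes. Pmaip1 and Bid passed through the tumour libraries alone, since neither reached an FPKM of 1 in any cerebellum library, and Apaf1 reached it in 1 cerebellum library. In A1G tumours against cerebellum, 5 of the 10 genes were higher at an adjusted p under 0.05 (edgeR's quasi-likelihood test, Benjamini-Hochberg over all tested genes), against 16.3 percent of all tested genes. Only Bcl2l1 was lower among the 10, against 16.1 percent of all tested genes. In Ptch1 tumours against cerebellum, 5 of the 10 were higher and 0 lower, against 20.2 and 19.7 percent of all tested genes. The 5 that rose were Bid, Pmaip1, Apaf1, Bcl2l11 and Mcl1 in each tumour kind. Their cerebellum libraries are shared between the comparisons, so these are not independent. The median log2 difference over the 10 genes was 0.82 for A1G tumours and 0.82 for Ptch1 tumours, beside 0.03 and 0.00 over all tested genes. In A1G tumours 7 of the 10 genes did not overlap with cerebellum, beside 6583 of the 14337 tested genes. In Ptch1 tumours it was 9 of the 10, beside 7776 of the 14337, so such separation was common over all genes.

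**Figure D1:**
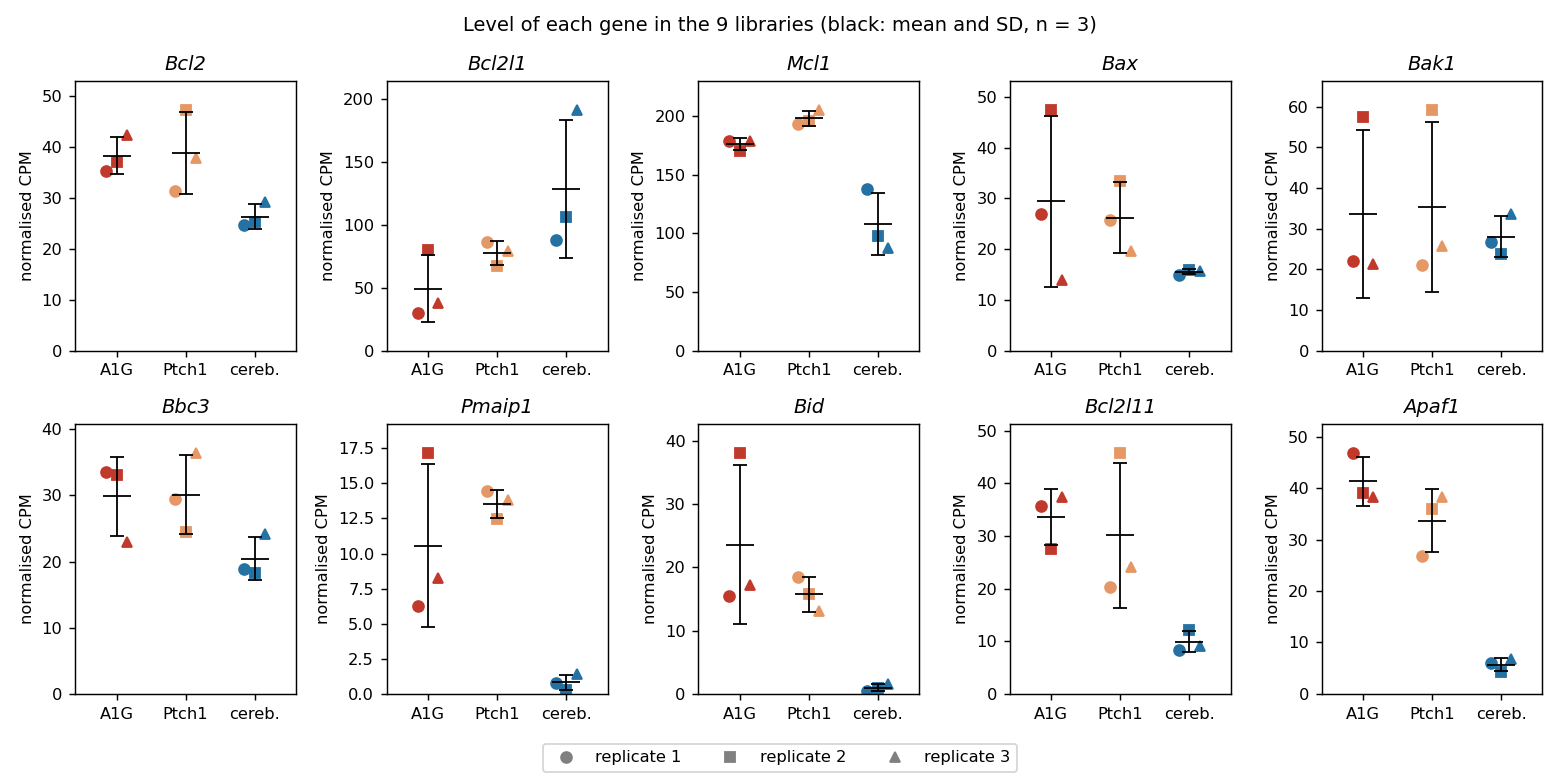
Level of each of the 10 genes in every library, in normalised CPM on linear axes that start at 0. Points are libraries (circle, square and triangle for replicates 1, 2 and 3), and black lines are the group mean ± SD (n = 3). Bcl2, Mcl1, Pmaip1, Bid, Bcl2l11 and Apaf1 lie above every cerebellum library in all 6 tumour libraries, whereas Bcl2l1 is highest in cerebellum.

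RefSeq (GRCm38.p6) gave 14 promoters for 9 of the 10 genes, each running from 250 bases before to 50 bases after an annotated start. They were read for CG dinucleotides, which cluster in promoters known as CpG islands. Apaf1 and Bid are shown as 2 of the genes that rose most, and Bcl2l1 as the gene that was lower in A1G tumours and that held a motif match, a choice made after the values were seen. All are printed 5′ to 3′ on the gene's strand, here the minus strand for all 3, with every CG in capitals.
Apaf1, chr10:91082694-91082993: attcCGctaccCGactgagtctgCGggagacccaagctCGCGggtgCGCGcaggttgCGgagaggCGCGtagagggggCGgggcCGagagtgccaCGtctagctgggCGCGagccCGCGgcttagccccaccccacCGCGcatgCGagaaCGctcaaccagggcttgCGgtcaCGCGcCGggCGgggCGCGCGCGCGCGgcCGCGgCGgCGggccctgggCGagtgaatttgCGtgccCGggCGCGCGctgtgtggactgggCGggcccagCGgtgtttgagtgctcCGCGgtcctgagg
Bid, chr6:120916775-120917074: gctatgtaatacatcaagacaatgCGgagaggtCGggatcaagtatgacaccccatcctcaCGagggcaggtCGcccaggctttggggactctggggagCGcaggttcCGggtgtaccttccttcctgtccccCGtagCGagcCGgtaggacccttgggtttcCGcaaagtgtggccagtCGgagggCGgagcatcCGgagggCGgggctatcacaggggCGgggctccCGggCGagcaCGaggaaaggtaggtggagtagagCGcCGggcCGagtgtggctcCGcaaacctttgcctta
Bcl2l1, chr2:152830668-152830967: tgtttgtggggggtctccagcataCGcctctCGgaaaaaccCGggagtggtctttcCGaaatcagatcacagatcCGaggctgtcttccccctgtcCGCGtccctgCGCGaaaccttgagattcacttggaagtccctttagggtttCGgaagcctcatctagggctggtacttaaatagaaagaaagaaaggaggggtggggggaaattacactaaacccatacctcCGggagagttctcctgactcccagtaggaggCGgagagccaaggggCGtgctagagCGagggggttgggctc
The Apaf1 promoter holds 46 CG dinucleotides, the most of the 14, and 98.4 percent of the 32851 mouse promoters in the table hold fewer. The Bid promoter holds 22, with 76.9 percent of promoters below it. The Bcl2l1 promoter shown is 1 of 3 annotated for the gene and holds 14, against a median of 7 over all promoters. It was the only one of the 14 with a match to the searched E2F letters (TTTGGCGC, TTTCCCGC, TTTGCCGC or TTTCGCGC on either strand): TTTCGCGC on the opposite strand, starting 145 bases before the annotated start of this promoter. Such a match is in 2.27 percent of all promoters. The GLI letters GACCACCCA, or their reverse complement, are in 0.253 percent of all promoters and in none of the 14. A match describes letters only, and these files hold no measurement of binding.

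The calls differed between guardians. Mcl1, which encodes a short-lived guardian, was higher in both tumour kinds. Bcl2l1 was lower in A1G tumours. For Bcl2, the founding member of the family, neither comparison passed the test.

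Mcl1 stood at 179, 171 and 179 CPM in A1G tumours, at 194, 196 and 205 CPM in Ptch1 tumours and at 138, 98.2 and 87.7 CPM in cerebellum. All tumour libraries lay above all cerebellum libraries, and every Ptch1 tumour lay above every A1G tumour. Against cerebellum, the log2 difference was 0.71 (SE 0.24, adjusted p = 0.0422, edgeR) in A1G tumours and 0.88 (SE 0.24, adjusted p = 0.0127, edgeR) in Ptch1 tumours, which is 1.63-fold and 1.84-fold. The tumours kept close together, with SDs of 4.88 CPM (A1G) and 6.32 CPM (Ptch1), and cerebellum libraries less so (26.6 CPM). The A1G call lay near the threshold and was lost in 10 of 18 alternatives, among them those without A1G replicate 1 or 3, without any one of the Ptch1 tumours and without cerebellum replicate 2 or 3, with adjusted p of 0.0514 to 0.146 (edgeR). The Ptch1 call was lost without cerebellum replicate 2 (log2 0.80, adjusted p = 0.0631, edgeR).

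Bcl2l1 stood at 30.2, 79.8 and 37.8 CPM in A1G tumours, at 86.6, 67.2 and 78.9 CPM in Ptch1 tumours and at 88.0, 106 and 191 CPM in cerebellum. All tumours lay below all cerebellum libraries, the nearest pair being Ptch1 replicate 1 and cerebellum replicate 1, and A1G replicate 2 lay among the Ptch1 tumours. A1G tumours differed from cerebellum by a log2 value of -1.38 (SE 0.39, adjusted p = 0.0179, edgeR), a 2.598-fold lower level. For Ptch1 tumours against cerebellum it was -0.73 (SE 0.39, adjusted p = 0.152, edgeR). Without A1G replicate 2 the A1G value was -1.92 (adjusted p = 0.00226, edgeR). The call was lost without A1G replicate 1 (-1.12), A1G replicate 3 (-1.22) or cerebellum replicate 3 (-0.95), with adjusted p of 0.0685 to 0.0948 (edgeR).

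Bcl2 stood at 35.4, 37.1 and 42.4 CPM in A1G tumours, at 31.4, 47.3 and 37.9 CPM in Ptch1 tumours and at 24.7, 25.2 and 29.2 CPM in cerebellum. The tumour libraries lay above the cerebellum libraries without overlap, yet the log2 differences of 0.54 (SE 0.28, adjusted p = 0.161, edgeR) in A1G and 0.56 (SE 0.28, adjusted p = 0.124, edgeR) in Ptch1 tumours missed the threshold. With 3 libraries against 3, the exact two-sided permutation test cannot go below p = 0.1, the value it gave for each of the 10 genes in each comparison without overlap. Bcl2 lies on the minus strand at chr1:106538178-106714274 (mm10) and overlaps the antisense gene D630008O14Rik. The labels and file headers do not state whether counting used strand, so fragments of overlapping genes cannot be told apart. The separation of Bcl2 held by CPM only. By the authors' FPKM its lowest values were 6.40 in A1G and 4.78 in Ptch1 tumours, below the highest of 6.56 in cerebellum.

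Within a library, levels of different genes can be compared per length, for which the authors' FPKM was used. Ratios and orders were taken within a library. Per length, Bcl2l1 stood at 0.256, 0.709 and 0.320 of the level of Mcl1 in A1G tumours and at 0.677, 0.520 and 0.582 in Ptch1 tumours, against 0.965, 1.64 and 3.30 in cerebellum. The ratio was below 1 in all 6 tumours and above 1 in 2 of 3 cerebellum libraries. Of the summed FPKM of the 3 guardians, Mcl1 held 72.7, 53.1 and 69.5 percent in A1G tumours and 56.9, 60.03 and 58.9 percent in Ptch1 tumours, against 48.6, 35.5 and 21.96 percent in cerebellum. Bcl2 held the smallest share in every library, between 4.46 and 9.24 percent. The cerebellum library with the lowest ratio, replicate 1, also held 2702 CPM of choroid plexus markers, against 40.4 and 86.3 CPM in the other cerebellum libraries, and their part in the ratio was not tested.

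**Figure D2:**
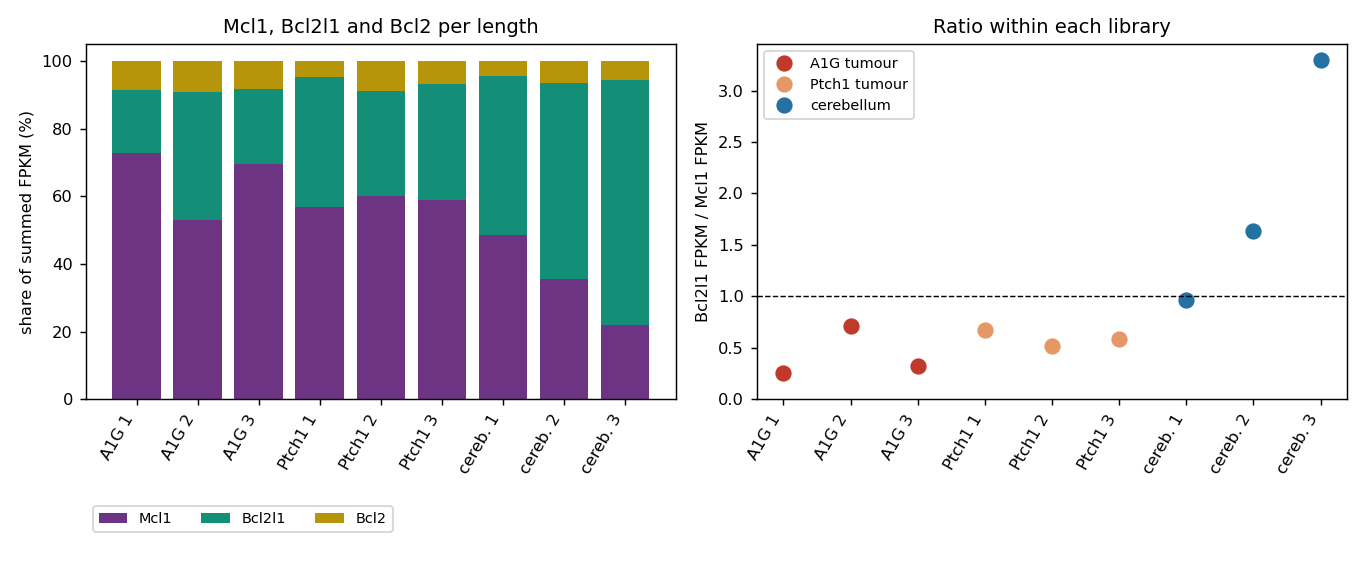
Left, share in percent of Mcl1, Bcl2l1 and Bcl2 in their summed FPKM, 1 bar per library. Right, Bcl2l1 FPKM divided by Mcl1 FPKM in each library, with a dashed line at equal levels. Mcl1 makes up 53.1 to 72.7 percent in tumours and 21.96 to 48.6 percent in cerebellum, and the ratio is 0.256 to 0.709 in tumours and 0.965 to 3.30 in cerebellum.

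The effectors Bax and Bak1 passed the test in neither tumour kind. Bax, which moves from the cytosol to mitochondria when activated, stood at 26.9, 47.4 and 14.0 CPM in A1G tumours, at 25.6, 33.5 and 19.5 CPM in Ptch1 tumours and at 14.97, 15.8 and 15.8 CPM in cerebellum. The cerebellum libraries agreed to an SD of 0.476 CPM, whereas the A1G tumours spread over both sides of them. Against cerebellum, Bax differed on the log2 scale by 0.93 (SE 0.42, adjusted p = 0.110, edgeR) in A1G tumours and 0.76 (adjusted p = 0.163, edgeR) in Ptch1 tumours. Without A1G replicate 3, the library with the lowest Bax, the A1G value was 1.26 and passed (adjusted p = 0.0295, edgeR). Without A1G replicate 2, the library with the highest Bax, it was 0.40 (adjusted p = 0.460, edgeR).

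Bak1, the effector that resides at the mitochondrial membrane, stood at 22.1, 57.4 and 21.4 CPM in A1G tumours, at 21.1, 59.2 and 25.7 CPM in Ptch1 tumours and at 26.8, 23.7 and 33.5 CPM in cerebellum. In each tumour kind replicate 2 lay above all cerebellum libraries, while the other tumours lay within or below the cerebellum range. On the log2 scale Bak1 differed from cerebellum by 0.27 (SE 0.47, adjusted p = 0.699, edgeR) in A1G tumours and -0.37 (adjusted p = 0.561, edgeR) without A1G replicate 2. In Ptch1 tumours it was 0.34 (adjusted p = 0.590, edgeR) and -0.27 (adjusted p = 0.693, edgeR) without Ptch1 replicate 2. Bak1 overlaps the antisense gene Ggnbp1.

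Of the 4 BH3-only genes, Bid, Pmaip1 and Bcl2l11 rose in both tumour kinds and Bbc3 passed in neither. Bid and Pmaip1 were near the floor of detection in cerebellum and had the largest differences of the 10 genes.

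Bid links death receptors to mitochondria after cleavage by caspase-8. It stood at 15.5, 38.1 and 17.3 CPM in A1G tumours, at 18.6, 15.7 and 13.0 CPM in Ptch1 tumours and at 0.525, 0.912 and 1.60 CPM in cerebellum, where the libraries held 2, 3 and 8 fragments. Every tumour lay above every cerebellum library, and A1G replicate 2 was the highest. On the log2 scale Bid was higher than in cerebellum by 4.46 (SE 0.56, adjusted p = 1.03e-04, edgeR) in A1G tumours and 3.88 (SE 0.55, adjusted p = 1.82e-04, edgeR) in Ptch1 tumours. Without A1G replicate 2 the A1G value was 3.93. From summed fragments, 206 in A1G and 255 in Ptch1 tumours against 13 in cerebellum, the ratio of summed levels was 23.0 (95 percent interval 13.1 to 43.9) for A1G and 14.9 (8.59 to 28.5) for Ptch1 tumours. These intervals cover counting error only.

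Bid lies on the minus strand at chr6:120891930-120916853 (mm10) and overlaps Bcl2l13 on the opposite strand over 913 bases, and Bcl2l13 was itself higher in tumours. The fragments of Bid came to 5.13, 7.79 and 6.07 percent of those of Bcl2l13 in A1G tumours and to 6.81, 5.07 and 3.31 percent in Ptch1 tumours, against 0.797, 1.21 and 2.12 percent in cerebellum. This share was higher in every tumour than in every cerebellum library. The part of Bcl2l13 fragments in the level of Bid was not tested.

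Pmaip1 encodes NOXA, which binds mainly to MCL1 and is a target of p53. It stood at 6.27, 17.2 and 8.22 CPM in A1G tumours, at 14.4, 12.5 and 13.8 CPM in Ptch1 tumours and at 0.788, 0.304 and 1.40 CPM in cerebellum, where the libraries held 3, 1 and 7 fragments. Ptch1 tumours lay close together (SD 0.998 CPM), while A1G replicate 2 lay above all of them and the other A1G tumours below all of them. The log2 difference was 3.56 (SE 0.62, adjusted p = 9.65e-04, edgeR) in A1G tumours and 3.91 (SE 0.61, adjusted p = 3.5e-04, edgeR) in Ptch1 tumours. Without A1G replicate 2 the A1G value was 3.004 (adjusted p = 0.00305, edgeR). Summed fragments were 92 in A1G and 210 in Ptch1 tumours against 11 in cerebellum, a ratio of summed levels of 12.1 (95 percent interval 6.47 to 25.1) and 14.6 (7.97 to 29.6). As for Bid, the intervals cover counting error only and leave out the spread between libraries.

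Bcl2l11 encodes BIM, which binds all guardians and can activate the effectors directly. It stood at 35.8, 27.5 and 37.4 CPM in A1G tumours, at 20.4, 45.7 and 24.1 CPM in Ptch1 tumours and at 8.40, 12.2 and 9.19 CPM in cerebellum. All tumours lay above all cerebellum libraries, with the widest spread in Ptch1 tumours. The log2 difference was 1.76 (SE 0.38, adjusted p = 0.00388, edgeR) in A1G tumours and 1.61 (SE 0.38, adjusted p = 0.00470, edgeR) in Ptch1 tumours, which is 3.38-fold and 3.06-fold.

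Bbc3 encodes PUMA, a p53 target that binds all guardians. It stood at 33.5, 33.1 and 23.0 CPM in A1G tumours, at 29.5, 24.5 and 36.4 CPM in Ptch1 tumours and at 18.9, 18.2 and 24.2 CPM in cerebellum. A1G replicate 3 lay within the cerebellum range and the lowest Ptch1 tumour just above it. The log2 difference was 0.55 in each tumour kind, with SE 0.31 and adjusted p = 0.203 (edgeR) in A1G and adjusted p = 0.175 (edgeR) in Ptch1 tumours.

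Apaf1, the scaffold of the apoptosome, had the smallest adjusted p of the 10 genes in both comparisons. It stood at 46.8, 39.0 and 38.3 CPM in A1G tumours, at 26.8, 36.0 and 38.3 CPM in Ptch1 tumours and at 6.04, 4.26 and 6.79 CPM in cerebellum. The lowest tumour lay far above the highest cerebellum library. The log2 difference was 2.84 (SE 0.33, adjusted p = 6.1e-05, edgeR) in A1G tumours and 2.55 (SE 0.33, adjusted p = 8.6e-05, edgeR) in Ptch1 tumours, which is 7.17-fold and 5.84-fold. Apaf1 lies on the minus strand at chr10:90989311-91082770 (mm10).

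The calls of Bid, Pmaip1, Bcl2l11 and Apaf1 held in both comparisons with cerebellum under all 18 alternatives. Their values were smaller by limma on log2(FPKM + 1), which compresses low levels: in A1G tumours 3.16 for Bid, 1.93 for Pmaip1, 1.41 for Bcl2l11 and 2.02 for Apaf1. The alternatives reused the same libraries. Bid and Pmaip1 had few fragments in cerebellum and passed the filter through the tumour libraries alone, so that their calls held is not independent support.

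**Figure D3:**
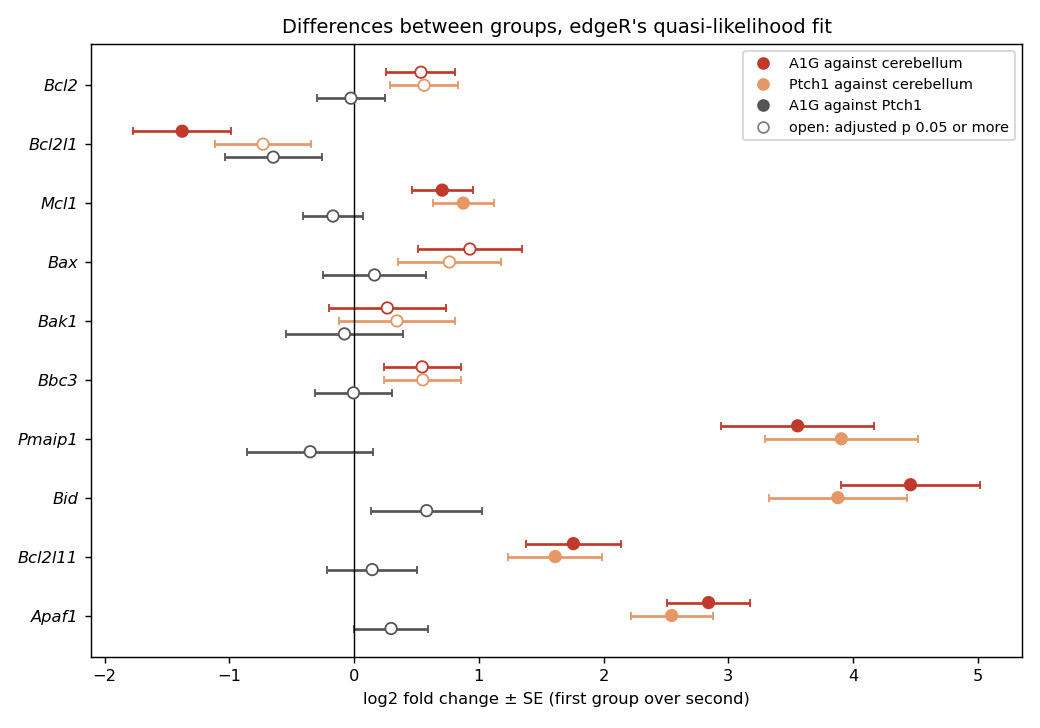
Log2 fold change ± SE of each of the 10 genes from edgeR's quasi-likelihood fit, for A1G tumours over cerebellum, Ptch1 tumours over cerebellum and A1G over Ptch1 tumours. Filled points passed an adjusted p of 0.05. Bid, Pmaip1, Apaf1, Bcl2l11 and Mcl1 lie to the right of 0 in both comparisons with cerebellum, Bcl2l1 lies to the left, and all 10 differences between tumour kinds are open.

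Ordered per length within cerebellum, mean FPKM ran from Bcl2l1 (57.4 ± 24.9) over Mcl1 (31.9 ± 8.02), Bax (22.5 ± 0.596), Bak1 (15.1 ± 2.84), Bbc3 (11.2 ± 1.85), Bcl2 (5.16 ± 1.40), Bcl2l11 (2.01 ± 0.409), Apaf1 (0.873 ± 0.205) and Bid (0.580 ± 0.314) to Pmaip1 (0.329 ± 0.219; SD, n = 3). Neighbours in that order differed the same way in 3 of 3 cerebellum libraries from Mcl1 down to Bid, and in 2 of 3 for the first pair and the last. In A1G tumours Mcl1 led at 53.9 ± 0.666 FPKM, followed by Bax at 44.6 ± 26.3 and Bcl2l1 at 23.0 ± 12.9, and Apaf1 at 6.57 ± 0.756 and Pmaip1 at 4.35 ± 2.47 came last (SD, n = 3). In Ptch1 tumours Mcl1 led at 59.8 ± 2.58 FPKM, followed by Bax at 38.8 ± 9.66 and Bcl2l1 at 35.5 ± 4.98, and Pmaip1 at 5.48 ± 0.491 and Apaf1 at 5.25 ± 0.941 came last (SD, n = 3). Bid was sixth in both tumour kinds, above Bcl2 in all 6 tumours, and was ninth in cerebellum. Among the remaining neighbours in A1G tumours, only Bax over Bcl2l1 and Bcl2l1 over Bak1 kept their order in all 3 libraries, and in Ptch1 tumours only Mcl1 over Bax and Bbc3 over Bid. Bax, with the fewest scaled fragments per FPKM of the 10, ranked higher per length than by CPM.

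Between the tumour kinds, 0 of the 10 genes passed the test, against 0.0139 percent of all tested genes (2 genes), and 0 passed by DESeq2, which called 163 genes. At an unadjusted p under 0.05 the count was 0 of 10, against 10.6 percent of all tested genes. The smallest adjusted p was 0.572 (edgeR), for Bcl2l1, with a log2 difference of -0.65 (SE 0.39) for A1G over Ptch1 tumours and -1.19 (adjusted p = 0.276, edgeR) without A1G replicate 2. The next largest was Bid at 0.58 (SE 0.44, adjusted p = 0.663, edgeR), which was 0.05 without A1G replicate 2. Pmaip1 differed by -0.35 (adjusted p = 0.840, edgeR), and by -0.90 without that library. The other 7 differences lay between -0.17 and 0.30 on the log2 scale, of which Bak1 was -0.71 (adjusted p = 0.586, edgeR) and Bax -0.37 (adjusted p = 0.766, edgeR) without that library. Mcl1 was the only gene of the 10 without overlap between the tumour kinds, lower in A1G tumours by 0.17 on the log2 scale, against 15.5 percent of all tested genes without overlap. The standard errors of these differences, 0.24 to 0.50 on the log2 scale, limit what could be detected, and a missed threshold does not show that the tumour kinds are alike.

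The sample make-up differed between tumours and cerebellum. Markers of granule neuron progenitors gave sums of 4019 to 5269 CPM in A1G tumours, of 4882 to 5919 CPM in Ptch1 tumours and of 1084 to 1556 CPM in cerebellum, and 7 of 8 were higher in each tumour kind. The 6 markers of dividing cells were all higher in both. Mature granule neuron markers (8 of 8 lower in both) gave sums of 357 to 1024 CPM in A1G tumours, of 192 to 647 CPM in Ptch1 tumours and of 6477 to 7555 CPM in cerebellum. Purkinje cell (6 of 6), interneuron (4 of 4) and oligodendrocyte markers (7 of 7) were lower in both, astrocyte and Bergmann glia markers 5 of 6, and Pcp2 was at 0 in the Ptch1 tumours. Oligodendrocyte markers, for example, gave sums of 331 to 432 CPM in A1G tumours, of 67.7 to 387 CPM in Ptch1 tumours and of 7665 to 8183 CPM in cerebellum. Microglia and macrophage markers were higher for 5 of 7 in each tumour kind and lower for 1 of 7 in Ptch1 tumours, with sums of 230 to 331 CPM in A1G tumours, of 144 to 244 CPM in Ptch1 tumours and of 103 to 139 CPM in cerebellum. Among other cell types, endothelial markers gave sums of 62.9 to 115 CPM in A1G tumours, 39.4 to 102 CPM in Ptch1 and 115 to 174 CPM in cerebellum libraries. T, B and NK cell markers stayed at 1.23 to 3.32 CPM in A1G tumours, 0 to 2.06 CPM in Ptch1 and 1.52 to 4.20 CPM in cerebellum libraries. Pericyte markers (71.2 to 148.5 CPM over all libraries) overlapped in range between tumours and cerebellum, while erythrocyte markers reached 17.7 CPM in tumours and 209 CPM in cerebellum. Meningeal fibroblast markers gave sums of 31.5 to 90.1 CPM in A1G tumours, 62.8 to 161 CPM in Ptch1 tumours and 136 to 169 CPM in cerebellum. Of these 4 markers, 2 were lower in each tumour kind and 1 was higher in Ptch1 tumours. In bulk samples, fewer cells of a type and less RNA per cell cannot be told apart, and the part of make-up in the 10 genes' differences was not tested.

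The rest of the pathway was read from 72 other apoptosis genes, of which 64 passed the filter. In A1G tumours 19 were higher and 8 lower than in cerebellum, and in Ptch1 tumours 16 were higher and 7 lower. Of all tested genes, 16.3 percent were higher and 16.1 percent lower in A1G tumours, and 20.2 percent higher and 19.7 percent lower in Ptch1 tumours, and the counts of each list below stand beside these shares. The median log2 differences over the 64 genes were 0.43 and 0.40. Between the tumour kinds 0 passed by edgeR, and 9.38 percent had an unadjusted p under 0.05 beside 10.6 percent of all tested genes.

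Values in the following sentences are group means, and log2 differences are given for A1G tumours and then Ptch1 tumours over cerebellum. Among other anti-apoptotic Bcl2 relatives, 1 of 4 tested was higher and 1 lower in each tumour kind. The lower one was Bcl2l2 (BCL-W), at 53.8 CPM in A1G and at 51.3 CPM in Ptch1 tumours, set against 150 CPM in cerebellum (log2 -1.48 and -1.55). The higher one was Bcl2l12 in A1G tumours (6.31 CPM, 0.567 CPM in cerebellum) and Bcl2a1b in Ptch1 tumours (3.36 CPM, 0.242 CPM in cerebellum), both named after their values were seen. In cerebellum Bcl2l12 rested on 8 fragments and Bcl2a1b on 3, and Bcl2a1b passed the filter through the tumour libraries alone. Bcl2a1b is 1 of several near-identical copies between which fragments cannot be assigned with certainty. Bok, a relative of Bax and Bak1, was higher, with a level of 24.6 CPM in A1G tumours, of 52.7 CPM in Ptch1 tumours and of 5.97 CPM in cerebellum (log2 2.06 and 3.15). Of 3 other BH3-only genes, Hrk, known in neurons as a death-promoting gene, rose in Ptch1 tumours (146 against 16.9 CPM, log2 3.12, adjusted p = 0.00201, edgeR). In A1G tumours Hrk stood at 25.4, 12.5 and 86.8 CPM (log2 1.29, adjusted p = 0.127, edgeR), and it passed without A1G replicate 2 (log2 1.73, adjusted p = 0.0279, edgeR). Without A1G replicate 3, the highest library, the value was 0.16 (adjusted p = 0.840, edgeR). Of 6 other mitochondrial genes, Bcl2l13 rose (358 CPM in A1G, 326 CPM in Ptch1 tumours, 72.3 CPM in cerebellum) and the outer membrane channel Vdac1 fell (log2 -0.998 and -0.828). The Vdac1 call in A1G tumours was lost without A1G replicate 1 or 3. In Ptch1 tumours it was lost without Ptch1 replicate 1 or 3, without cerebellum replicate 1 or 2, and without the filter on low values.

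Among apoptosome, caspase and nuclease genes, Casp2, an initiator caspase gene, rose by 2.19 in A1G and 1.94 in Ptch1 tumours on the log2 scale. Cycs, which encodes cytochrome c, and Dffa fell in A1G tumours (both were named after their values were seen), and Endog fell in both tumour kinds. The Cycs call was lost without A1G replicate 2 (log2 -1.23, adjusted p = 0.0955, edgeR). Endog, a mitochondrial nuclease, had a level of 0.969 CPM in A1G tumours, of 2.01 CPM in Ptch1 tumours and of 10.2 CPM in cerebellum (log2 -3.36 and -2.36). Of 8 tested inhibitors of apoptosis proteins and their antagonists, 3 rose in A1G (Birc5, Naip5 and Birc6) and 2 in Ptch1 tumours (Birc5 and Naip5), Birc6 being named after its values were seen. Birc5 (survivin), which also acts in cell division, had a level of 41.7 CPM in A1G tumours, of 54.99 CPM in Ptch1 tumours and of 0.476 CPM in cerebellum (log2 6.32 and 6.72). The cerebellum libraries held 2, 1 and 3 fragments of Birc5, which passed the filter through the tumour libraries alone, so the size of its rise is uncertain. Naip5 passed the filter through the tumour libraries alone, rested on 4 fragments in cerebellum and had none in Ptch1 replicate 3. Its calls were lost in 4 alternatives for A1G and 9 for Ptch1 tumours, among them those without cerebellum replicate 1 or 3 and, for Ptch1 tumours, also without cerebellum replicate 2 or Ptch1 replicate 1 or 2.

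Of 10 death receptor pathway genes, 5 rose in A1G tumours (Ngfr, Ripk1, Casp8, Tnfrsf1a and Tnfrsf21, the last 3 named after their values were seen), 2 rose in Ptch1 tumours (Ngfr and Ripk1) and 0 fell, where 16.3 and 20.2 percent of all tested genes rose. Without A1G replicate 2, Casp8 (log2 1.75, adjusted p = 0.0593, edgeR) and Tnfrsf1a (log2 1.44, adjusted p = 0.0684, edgeR) missed the threshold. Tnfrsf21 stood at 0.88 (adjusted p = 0.0482, edgeR) without that library, beside 1.49 with it. Ngfr, the p75 neurotrophin receptor, had a level of 50.4 CPM in A1G tumours, of 89.4 CPM in Ptch1 tumours and of 5.11 CPM in cerebellum (log2 3.28 and 4.11), and the kinase gene Ripk1 rose by 1.73 and 2.11. Of 10 genes of the p53 circuit, 3 rose in each tumour kind and 0 fell, beside the same 16.3 and 20.2 percent higher over all tested genes: Trp53 and Trp53inp1 in both, Mdm4 in A1G tumours (named after its values were seen) and Mdm2 in Ptch1 tumours. Trp53 stood at 31.0, 96.4 and 32.5 CPM in A1G tumours and at 25.4, 39.99 and 32.6 CPM in Ptch1 tumours, with 1.84, 5.78 and 11.2 CPM in cerebellum. Its log2 differences were 3.06 (adjusted p = 0.00228, edgeR) and 2.35 (adjusted p = 0.00739, edgeR), and without A1G replicate 2 the A1G value was 2.31 (adjusted p = 0.00696, edgeR). Trp53inp1, which acts with p53, rose by 2.37 and 2.20. Mdm2, which degrades p53, rose in Ptch1 tumours by 0.67 (adjusted p = 0.0407, edgeR), a call lost in 11 of 18 alternatives (0.53 to 0.74), among them those without A1G replicate 3, Ptch1 replicate 1 or 2 or any cerebellum library, and differed by 0.37 (adjusted p = 0.269, edgeR) in A1G tumours. Cdkn1a, a p53 target that arrests the cell cycle, stood at 10.7, 41.2 and 4.94 CPM in A1G tumours, at 7.79, 30.4 and 8.05 CPM in Ptch1 tumours and at 3.94, 8.51 and 26.6 CPM in cerebellum. The groups overlapped, and the log2 difference was 0.54 (adjusted p = 0.656, edgeR) in A1G and 0.26 (adjusted p = 0.826, edgeR) in Ptch1 tumours. Its direction turned without replicate 2 of the tumour kind in question, to -0.74 (adjusted p = 0.533, edgeR) in A1G and -0.73 (adjusted p = 0.570, edgeR) in Ptch1 tumours, and in Ptch1 tumours also without cerebellum replicate 1 (-0.16).

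Of 12 upstream regulators of Bcl2 proteins, 2 rose and 3 fell in A1G tumours, and 2 rose and 4 fell in Ptch1 tumours. Over all tested genes, 16.3 percent rose and 16.1 percent fell in A1G tumours, and 20.2 percent rose and 19.7 percent fell in Ptch1 tumours. Fbxw7 fell in both and Foxo3 in Ptch1 tumours, besides the JNK genes (both were named after their values were seen). E2f1, a cell cycle transcription factor, rose by 4.15 in A1G and 4.59 in Ptch1 tumours on the log2 scale, and the survival kinase Akt1 by 1.10 and 1.14. The stress kinase genes Mapk9 and Mapk10 (JNK2 and JNK3) fell, Mapk9 by 1.43 and 1.63 and Mapk10 by 1.95 and 1.36 on the log2 scale. The Mapk10 call in Ptch1 tumours was lost without Ptch1 replicate 2 (-1.09, adjusted p = 0.0656, edgeR).

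**Figure D4:**
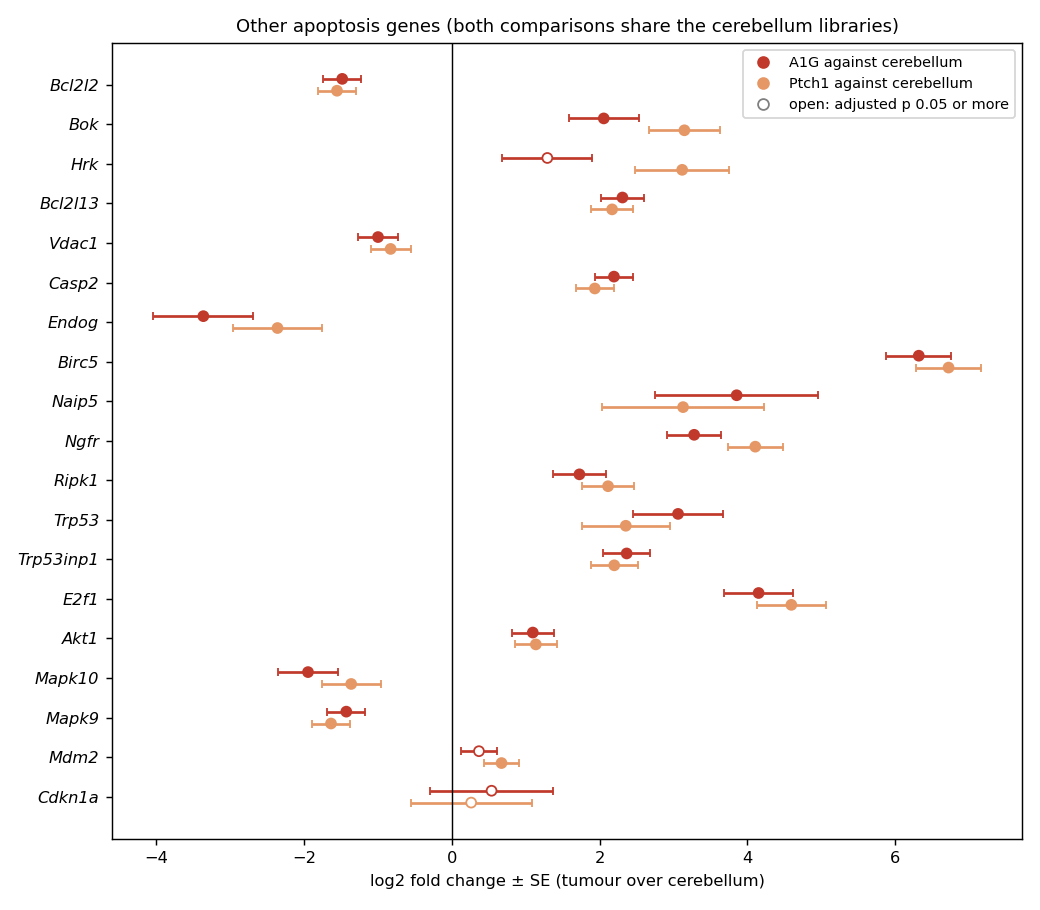
Log2 fold change ± SE of the named other apoptosis genes for A1G and Ptch1 tumours over cerebellum, from edgeR's quasi-likelihood fit. Filled points passed an adjusted p of 0.05. Birc5 and E2f1 lie farthest to the right (4.15 to 6.72), Bcl2l2, Vdac1, Endog, Mapk9 and Mapk10 lie to the left of 0, and Cdkn1a is open in both.

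The genes whose pattern over the 9 libraries was most like that of Bid, by Pearson's r of log2(CPM + 1), were C1ql1 (0.994), Barhl1 (0.991) and Ppm1e (0.989). For Pmaip1 they were Pdzrn4 (0.988), Pde3a (0.986) and Map4k4 (0.986). Barhl1 is 1 of the granule neuron progenitor markers, with a mean of 356 CPM in A1G tumours, of 252 CPM in Ptch1 tumours and of 15.6 CPM in cerebellum. The 9 libraries fall into tumours and cerebellum, so these values mainly describe that contrast, and they are given without a test.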

How the data were processed

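The authors deposited 1 table per library. Per the file headers, expected counts are raw fragments per gene, of which 1147 to 1440 genes per library were not whole (tolerance 1e-06). The deposited signal column holds those fragments times the authors' scaling factor, and FPKM values were computed by the authors from it. From the values, 1 FPKM stood for fewer scaled fragments in tumours than in cerebellum (for Mcl1, 11.7 and 14.5). Per the submitters' processing notes, the build was mm10 and Bowtie 0.12.2 was named, while the counting tool and strand setting are not given in the sources used here.

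Fragments were rounded and fitted over all 9 libraries with edgeR 4.0.16 (R 4.3.3, TMM, quasi-likelihood test, 1 mean per group), after a filter (FPKM of 1 or more in 3 or more libraries) that kept 14337 genes. Benjamini-Hochberg adjustment ran over these genes, with 0.05 as threshold. Alternatives used DESeq2 1.42.0, limma 3.58.1 on log2(FPKM + 1) and log2(FPKM + 0.1), other scalings and filters, a replicate block and each library left out. Permutation tests, tables and plots used Python 3.11.15 with matplotlib 3.10.9, SciPy 1.17.1, pandas 2.3.3 and NumPy 2.4.6. The fit was also run on simulated data, the outcome of which is not reported here and is not used as support. No 2 replicates agreed within sampling noise (a chi-square of 10.9 to 43.5 per degree of freedom).

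The 10 genes and all lists were chosen with earlier results of these data known, and the promoter motifs after the values were seen. All 10 genes were named. Of each list of other apoptosis genes, up to 2 with the largest rise and up to 2 with the largest fall past the threshold in both tumour kinds were named, otherwise the most abundant, and Trp53, Mdm2 and Cdkn1a always. Some genes of these lists are not reported here.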

Additional observations from a re-analysis of the deposited data

How the results depend on the processing

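The 30 differences of the 10 genes were recomputed under 18 alternatives, 540 values in all. Of these, 525 kept their side of the threshold, 14 lost the call, 1 gained it and 0 calls reversed direction. Among the 525, differences that missed the threshold both as reported and in the alternative could change sign. That of Bak1 in A1G tumours against cerebellum ran from -0.37 to 0.51. The number of the 10 genes lower in A1G tumours than in cerebellum, 1 as reported, ranged from 0 to 1 when each library was left out in turn, with 0 without A1G replicate 1, A1G replicate 3 or cerebellum replicate 3. The number of other apoptosis genes lower in A1G tumours, 8 as reported, was 5 without A1G replicate 3 and ranged up to 9 (without cerebellum replicate 3). Without the filter on low values, 1 other apoptosis gene was higher in A1G than in Ptch1 tumours, against 0 as reported. It was Trp73 (log2 5.44, SE 1.17, adjusted p = 0.0244, edgeR). This call rested on 2 fragments in Ptch1 tumours, and 45 of the 57 fragments in A1G tumours came from A1G replicate 2. The share of all genes called under this setting is not reported here. Replicate numbers did not pair the libraries (correlation of same-numbered deviations -0.0691 to 0.211). With the replicate block, 4 of the 10 genes were higher in A1G tumours, against 5, since Mcl1 (log2 0.72) missed the threshold, and the counts of the 10 genes were otherwise as reported. Scaling by total fragments moved the median of all genes to 0.135 for A1G tumours against cerebellum (0.03 as reported) and to 0.127 against Ptch1 tumours (0.02), and no call of the 10 genes changed. Depth limits the levels of Bid and Pmaip1 in cerebellum, which rest on 1 to 8 fragments a library. The causes of lost calls were not tested.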

Other observations

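For Bcl2 the ratio of the deposited scaled fragments to FPKM was not fixed: it was 14.6 to 23.3 scaled fragments per FPKM in tumours and 19.1 to 28.2 in cerebellum, whereas for Mcl1 it was 11.7 in all tumours and 14.5 in all cerebellum libraries. Trp73, a relative of p53 outside the filter on low values, stood at 1.84, 14.0 and 2.88 CPM in A1G tumours and at 0, 0.225 and 0 CPM in Ptch1 tumours, with 1.05 to 3.79 CPM in cerebellum.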
